A study of Macaca mulatta with 12 samples.

Results

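Transcripts of 9 enzymes that break down branched-chain amino acids and propionate were followed in the dorsal raphe nucleus of female rhesus macaques given ovarian hormones. The genes are PCCA, PCCB, ALDH6A1, BCAT1, BCAT2, BCKDHA, BCKDHB, DBT and IVD. Every probe set of a human Affymetrix array whose only gene symbol was one of these was taken, which gave 12 probe sets of 12625 on the array. BCKDHB had 3 probe sets, PCCA had 2 and the other 7 genes had 1 each. The set was chosen by measured values of 2 of its genes: ALDH6A1 and PCCA had been seen in these same data to move in opposite directions with both hormones together. The difference of each enzyme between the combined group and placebo is therefore described without a test. The 9 genes stand among 8221 with a probe set of their own.

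The 4 groups were estrogen plus progesterone, estrogen alone, progesterone alone and placebo, each with 3 monkeys and 1 array per monkey. Steroid crystals were delivered from Silastic capsules implanted under the skin for 1 month before the tissue was collected. The placebo animals are coded OVX, the usual abbreviation for ovariectomized, and the labels write that code for no other group. The titles of the progesterone arrays carry the codes of the combined group, whereas their source names carry P1 to P3, and these arrays are taken here as progesterone alone. Ages, hormone doses and serum levels are not among the labels used here.

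Leucine, isoleucine and valine are first stripped of their amino group by the transaminases BCAT1 in the cytosol and BCAT2 in mitochondria, a reaction that moves nitrogen toward glutamate in brain. The branched-chain ketoacid dehydrogenase, built from BCKDHA, BCKDHB, DBT and a shared dihydrolipoamide dehydrogenase, then commits the carbon skeletons to oxidation. IVD carries leucine onward, ALDH6A1 carries valine to propionyl-CoA, and the biotin enzyme propionyl-CoA carboxylase, made of PCCA and PCCB subunits, feeds propionyl-CoA toward the citric acid cycle.

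Values are deposited intensities on a linear scale, with all arrays scaled by the authors to a trimmed mean between 200.072 and 200.084. Because human probes were hybridized with macaque RNA, mismatches can lower a signal. Levels of different probe sets are therefore not read as relative amounts of RNA. Where marker intensities are summed, the brightest probe sets weigh most. Changes are log2 differences, with their standard errors, of quantile-normalized log2(intensity + 8.26), and this offset understates the change of dim probe sets. The lowest 40% of probe sets were left out, after which 7535 were fitted with limma. Of the 9 enzymes, 8 passed that limit with 1 probe set each, namely all but DBT. Array 1 of the combined group and array 1 of the estrogen group stood apart, with 28S ribosomal RNA intensities of 1354 and 841, against at most 179 on the other 10. The 3' to 5' ratio of GAPDH signal was 2.05 and 2.45 on those arrays, against at most 1.46 elsewhere. The serotonin transporter SLC6A4 read 220 or more on every array, and none of the 56 fitted markers of neurons, glia, vessels, blood or cerebellum passed the adjusted threshold of 0.05 in limma in any comparison.

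PCCA, the subunit of propionyl-CoA carboxylase that carries biotin, was lower with both hormones together than in every other group. The brighter of its 2 probe sets read 19.6, 18.1 and 39.7 in the combined group. It read 66.2, 60.2 and 51.6 with estrogen, 96.6, 77.7 and 67.2 with progesterone, and 91.2, 56.2 and 86.3 with placebo. All 3 combined arrays lay below all 9 others. Of all tested probe sets, 6.37% did not overlap between the combined group and estrogen, 16% against progesterone and 8.61% against placebo. The group means were 25.8 ± 12.1 with both hormones, 59.4 ± 7.34 with estrogen, 80.5 ± 14.9 with progesterone and 77.9 ± 19.0 with placebo (SD, n = 3 each).

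The log2 difference of PCCA between the combined group and placebo was -1.42 ± 0.27, a ratio of mean intensities of 0.331. It ranked 6 from the bottom of the 7535 probe sets in that contrast, which is the one that chose it. Set against the single hormones, the combined group differed by -1.06 ± 0.27 from estrogen and by -1.47 ± 0.27 from progesterone. Estrogen alone and placebo differed by -0.36 ± 0.27, with overlapping arrays, and progesterone alone and placebo by 0.055 ± 0.27. The departure of the combined group from the sum of the single-hormone differences was -1.11 ± 0.38. These comparisons share the combined or the placebo arrays with the one behind the choice, so they are given as values.

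Estrogen against progesterone uses none of those arrays and was tested. The 3 estrogen arrays, at most 66.2, lay below the 3 progesterone arrays, at least 67.2, by a narrow margin. In that comparison 13.7% of all tested probe sets did not overlap. The PCCA difference was -0.41 ± 0.27, with a 95% interval that reached 0.59 to either side, and missed the threshold in limma (adjusted p = 0.725). With 3 arrays against 3, an exact permutation test cannot go below 0.1, so no such test is added. In bulk tissue, fewer cells of a type and less RNA per cell cannot be told apart, for PCCA and for every other enzyme here.

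The name of the brighter PCCA probe set carries the suffix for probes that may match related transcripts, and that of the second does not. The second PCCA probe set was too dim to be fitted with the rest. It read 11.7, 9.53 and 7.98 with both hormones, 46.9, 12.3 and 10.3 with estrogen, 11.1, 29.7 and 8.92 with progesterone, and 28.1, 14.2 and 8.97 with placebo. The combined mean of 9.74 ± 1.86 against 17.1 ± 9.89 with placebo is also lower, but the arrays overlap and most values sit close to the offset.

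**Figure D1:**
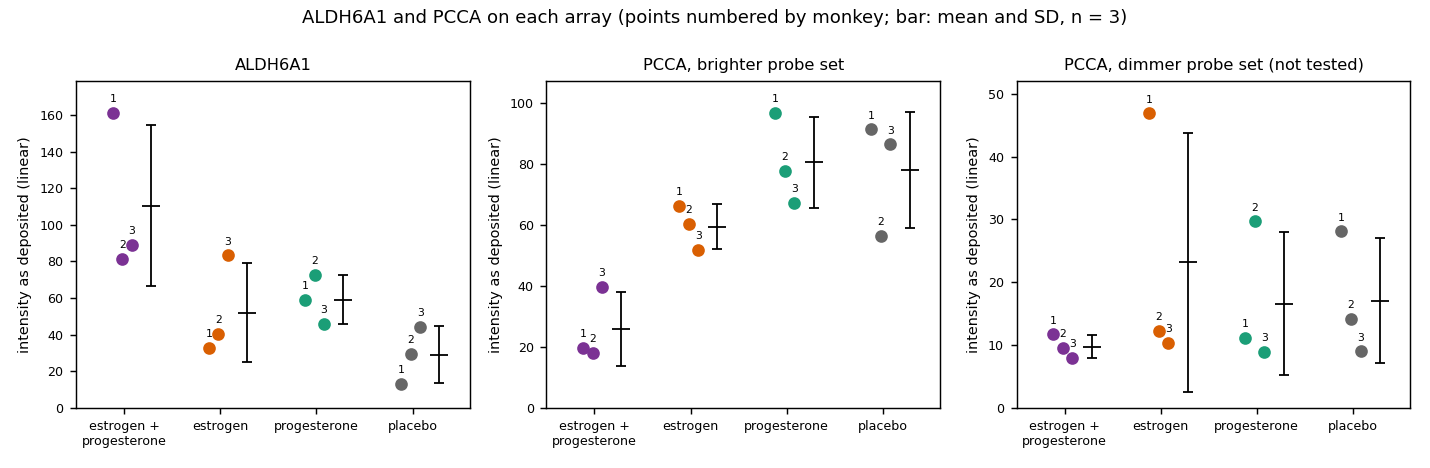
ALDH6A1 and both probe sets of PCCA on each of the 12 arrays, as deposited intensity on a linear axis, with a point per monkey, a bar at the group mean and the SD as the error. The 3 combined arrays of the brighter PCCA probe set, at most 39.7, lie below all others, whereas those of ALDH6A1, at least 81.1, lie above all others but 1 estrogen array at 83.2.

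PCCB, the partner subunit that completes the carboxylase, did not share the low values of PCCA in the combined group. Its intensities were 191, 242 and 163 with both hormones, 172, 169 and 206 with estrogen, 167, 198 and 215 with progesterone, and 277, 156 and 222 with placebo. The 4 groups overlapped throughout, and their means spanned 182 ± 20.6 with estrogen to 218 ± 60.7 with placebo (SD, n = 3 each). The difference between the combined group and placebo was -0.12 ± 0.23 for PCCB. Between the combined group and progesterone it was 0.0057 ± 0.23, with a 95% interval from -0.50 to 0.51 and an adjusted p of 0.994 in limma.

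ALDH6A1, the mitochondrial methylmalonate semialdehyde dehydrogenase of the valine and thymine routes, was brightest with both hormones and dimmest with placebo. Its intensities were 161, 81.1 and 88.9 in the combined group. They were 32.5, 40.4 and 83.2 with estrogen, 59.0, 72.5 and 45.6 with progesterone, and 13.0, 29.5 and 44.2 with placebo. All 3 combined and all 3 progesterone arrays lay above the placebo arrays, whereas the estrogen arrays overlapped with placebo. The margin of progesterone over placebo was narrow, 45.6 against 44.2. Of all tested probe sets, 8.61% did not overlap between the combined group and placebo, and 16.8% between progesterone and placebo. The group means were 110 ± 44.0, 52.0 ± 27.3, 59.0 ± 13.5 and 28.9 ± 15.6 in the order combined, estrogen, progesterone and placebo (SD, n = 3 each).

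The log2 difference of ALDH6A1 between the combined group and placebo was 1.67 ± 0.41, a ratio of mean intensities of 3.82, and ranked 2 from the top of the 7535 probe sets in the contrast that chose it. Progesterone alone and placebo differed by 0.92 ± 0.41, and estrogen alone and placebo by 0.66 ± 0.41. Leaving out single arrays moved the first value as low as 0.56, without placebo array 1, and the second between 0.26, without estrogen array 3, and 0.9955, without estrogen array 1. The combined group differed by 0.75 ± 0.41 from progesterone, with no overlap of arrays, and by 1.01 ± 0.41 from estrogen, with overlap. Between the combined group and progesterone, 16% of all tested probe sets did not overlap. The departure from the sum of the single-hormone differences was 0.092 ± 0.57 for ALDH6A1, against -1.11 ± 0.38 for PCCA. In the tested comparison of estrogen with progesterone, ALDH6A1 differed by -0.26 ± 0.41, with a 95% interval from -1.15 to 0.63 (limma adjusted p = 0.908). ALDH6A1 was in the tested set only through its combined arrays, so nothing further is read from this test.

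The brightest ALDH6A1 value, 161, came from the combined array with high ribosomal signal, and the estrogen array with that signal gave 32.5, the lowest of its group. Without both arrays the ALDH6A1 difference was 1.41 between the combined group and placebo but 0.41 between the combined group and estrogen and 0.48 between the combined group and progesterone, and estrogen against progesterone turned to 0.071. The ALDH6A1 departure from the sum of single-hormone differences was then -0.53. PCCA without both arrays still differed by -1.24 from placebo and by -0.87 from estrogen. ALDH6A1, PCCA and BCAT1 had mean log2 values of 5.95 to 6.02, just above the filter limit of 5.85, while the nearest member below it was a BCKDHB probe set at 5.17. ALDH6A1 fell under the limit when combined array 1 was left out, and its mean over the 9 arrays outside the combined group was 5.67, so it passed the filter only through the group in which it was bright.

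Summed marker intensities of other cell types differed in range between some groups, although no single marker passed the threshold. The summed intensity of all 10 listed astrocyte markers was 15416 to 17157 with both hormones, 14920 to 16779 with estrogen, 16484 to 17315 with progesterone and 13694 to 15099 with placebo. The combined and progesterone sums thus lay above placebo, although only 3 of the 10 markers were higher with both hormones than with placebo and 6 of 10 with progesterone. At an unadjusted p under 0.05 in limma, 3 of the 10 were lower with progesterone than with placebo and 0 were higher. The lowest was SOX9, at -0.80 ± 0.16 (limma adjusted p = 0.177). ALDOC, the brightest of the markers, read 9640, 9280 and 10100 with progesterone, against 8950, 7480 and 6990 with placebo. The lowest placebo sum, that of placebo array 1, includes SLC1A2 at 293, against at least 3373 on every other array. With any SLC1A2 value of the other arrays, it would not lie below the lowest combined and progesterone sums. The separation of the astrocyte sums from placebo thus rests on this 1 reading. The 9 serotonin neuron markers named on the array, of 11 listed, summed to 1260 to 1673 with both hormones, 1380 to 1636 with estrogen, 1138 to 1292 with progesterone and 1345 to 1635 with placebo. TPH1 was near 0 on every array, at most 3.6, and TPH2 was not among the probe sets named here. The part of these markers in the enzyme differences was not tested.

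BCAT1, the cytosolic transaminase, varied little, and was slightly higher with either hormone alone than with placebo. Its intensities were 48.2, 50.9 and 65.2 with both hormones, 75.1, 55.2 and 60.7 with estrogen, 71.6, 59.3 and 59.3 with progesterone, and 46.1, 56.6 and 41.8 with placebo. The progesterone arrays lay above the placebo arrays, and the log2 difference was 0.32 ± 0.18 (limma adjusted p = 0.699). BCAT1 was the 1 case without overlap among the 6 enzymes other than PCCA and ALDH6A1 in that comparison. Over all tested probe sets, 16.8% did not overlap between progesterone and placebo, so 16.7% of the 6 enzymes is close to the background. Estrogen against placebo gave 0.32 ± 0.18 for BCAT1, with overlap. The difference between both hormones and progesterone was -0.23 ± 0.18 for BCAT1, also with overlap.

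BCAT2, the mitochondrial transaminase, was among the most variable of the enzymes. It read 121, 168 and 110 with both hormones, 39.4, 118 and 154 with estrogen, 82.6, 119 and 158 with progesterone, and 206, 90.8 and 155 with placebo. No pair of groups was separated. Its spread between monkeys of a group was 0.66 on the log2 scale, larger than that of 92.9% of the tested probe sets, and its 95% interval reached 1.01 to either side, or 2.02-fold. The lowest BCAT2 value, 39.4, was on the estrogen array with high ribosomal signal. Estrogen against placebo gave -0.65 ± 0.46 with that array and -0.057 without both such arrays.

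**Figure D2:**
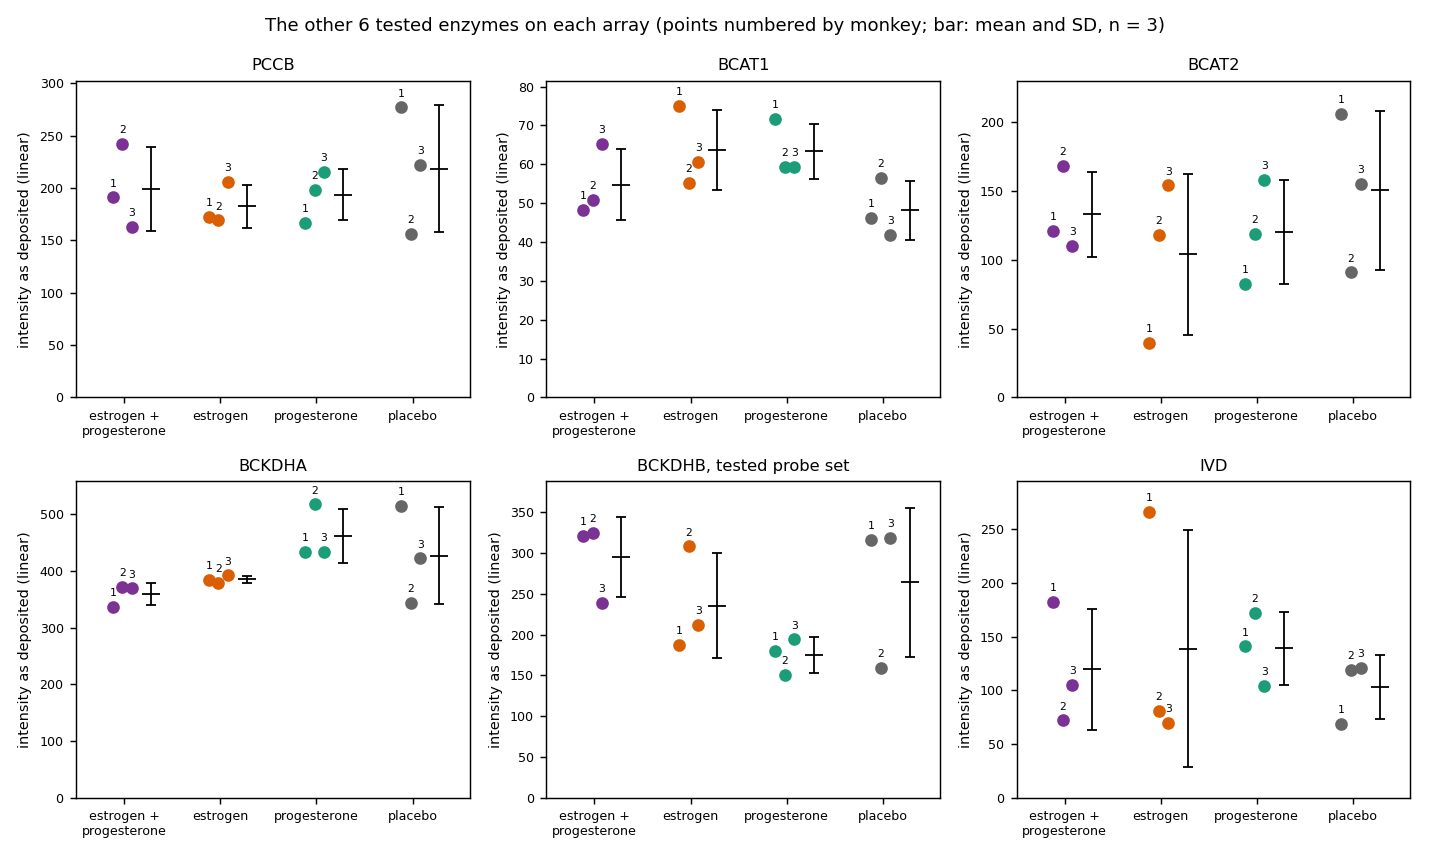
The other tested enzymes (PCCB, BCAT1, BCAT2, BCKDHA, the tested probe set of BCKDHB, and IVD) on each array, as deposited intensity on linear axes that start at 0, with a point per monkey, a bar at the group mean and the SD as the error. BCKDHA lies lower in the combined group, at most 371, than in the progesterone group, at least 433, and BCKDHB lies higher, at least 239 against at most 194.

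BCKDHA and BCKDHB encode the alpha and beta subunits of the decarboxylase that opens the branched-chain dehydrogenase reaction. BCKDHA read 337, 371 and 369 with both hormones, 384, 379 and 392 with estrogen, 433, 517 and 434 with progesterone, and 515, 344 and 422 with placebo. The combined arrays lay below the estrogen arrays and below the progesterone arrays, and the estrogen arrays also lay below the progesterone arrays. Only placebo, whose arrays spanned 344 to 515, overlapped with every other group. BCKDHA had the smallest spread between monkeys of the 8 enzymes, 0.17 on the log2 scale.

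None of these BCKDHA differences passed the threshold in limma. The combined group differed from progesterone by -0.36 ± 0.18, with a 95% interval from -0.74 to 0.02 (adjusted p = 0.661). It differed from estrogen by -0.11 ± 0.18, and estrogen differed from progesterone by -0.25 ± 0.18 (adjusted p = 0.745). Combined against estrogen, 6.37% of all tested probe sets did not overlap, and for estrogen against progesterone the share was 13.7%. BCKDHA was the only one of the 6 enzymes without overlap in either of those comparisons.

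BCKDHB, read with the brightest of its 3 probe sets, ran the other way between the combined and the progesterone group. It read 321, 325 and 239 with both hormones, 187, 308 and 212 with estrogen, 180, 151 and 194 with progesterone, and 316, 159 and 318 with placebo. The combined group differed from progesterone by 0.70 ± 0.28, with a 95% interval from 0.10 to 1.30. The unadjusted p was 0.0264 and the adjusted p 0.548 in limma, so the call was not made. Placebo held both low and high BCKDHB values, and progesterone against placebo gave -0.50 ± 0.28 (limma adjusted p = 0.693), with a range of -0.82 without placebo array 2 to -0.33 without placebo array 1. In this comparison of the combined group with progesterone, BCKDHA and BCKDHB were 2 of the 6 enzymes without overlap, 33.3% of them, beside 16% of all tested probe sets. The departure from the sum of single-hormone differences was 0.83 ± 0.39 for BCKDHB and -0.24 ± 0.25 for BCKDHA, with adjusted p = 0.966 and 0.973 in limma.

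The other BCKDHB probe sets were too dim to be fitted. The first ran between 0.334 and 199 over the 12 arrays, a 595-fold span, and reached 2.15, 91.2 and 0.334 within the combined group alone. Within each group it was brightest on the same array as the tested probe set, but its mean was lowest in the combined group. The second stayed between 1.82 and 24.6, with 7 arrays under the offset. Its mean was highest in the combined group, as was that of the tested probe set. Neither dim probe set gives a usable level of BCKDHB, and the gene is described by the brightest probe set alone. The name of that probe set carries the suffix for probes that may match related transcripts. The names of the brighter PCCA probe set and of the IVD probe set carry it as well.

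DBT, which encodes the transacylase core of the complex, was also below the filter limit. It read 7.87, 26.3 and 12.3 with both hormones, 22.8, 10.2 and 14.5 with estrogen, 30.8, 35.8 and 14.3 with progesterone, and 15.4, 17.0 and 26.8 with placebo. The groups overlapped, and no test is given. Thus only 2 of the subunits that are particular to this complex could be tested.

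IVD, isovaleryl-CoA dehydrogenase, takes the step of leucine breakdown that follows the dehydrogenase complex. It read 182, 72.0 and 105 with both hormones, 266, 80.5 and 69.5 with estrogen, 141, 172 and 104 with progesterone, and 68.8, 119 and 121 with placebo. All pairs of groups overlapped. The highest values, 266 and 182, were those of the estrogen and combined arrays with high ribosomal signal. Without both arrays the IVD difference between estrogen and placebo was -0.35, against 0.20 ± 0.44 with them. That of the combined group and placebo was then -0.21, against 0.12 with them. Progesterone against placebo gave 0.41 ± 0.44 for IVD (limma adjusted p = 0.863), and 0.20 without placebo array 1.

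**Figure D3:**
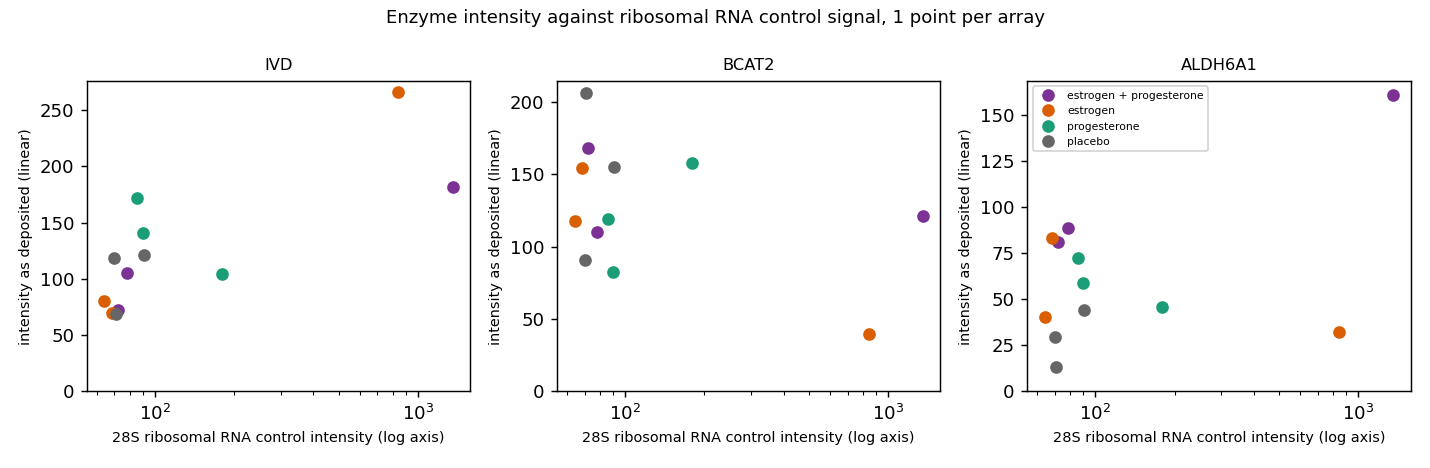
Intensity of IVD, BCAT2 and ALDH6A1 against the 28S ribosomal RNA intensity of the same array, on a log10 horizontal axis, with a point per array coloured by group. The estrogen array at 841 and the combined array at 1354 carry the highest IVD values, and the combined array also the highest ALDH6A1 value.

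Over the 38 tests made for the enzymes in 6 comparisons, none passed the adjusted threshold in limma, and 1 had an unadjusted p under 0.05, BCKDHB between the combined group and progesterone. The lowest adjusted p was 0.548. The whole array offered few calls. The share of probe sets past the adjusted threshold was 0% for estrogen against placebo, 0.0398% for progesterone against placebo, 0% for the combined group against estrogen, 0.0133% for the combined group against progesterone and 0.0265% for estrogen against progesterone. For the departure from additivity it was 0%. The corresponding shares at an unadjusted p under 0.05 were 3.16%, 8.24%, 2.87%, 7.71%, 8.45% and 4.99%.

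The 8 enzymes did not lean one way when the combined group was set against placebo, with 4 higher, 4 lower and a median of -0.014, beside -0.0031 over all tested probe sets. PCCA and ALDH6A1 were the only 2 without overlap in that contrast, in which 8.61% of all tested probe sets did not overlap, and nothing is read from this since it is the contrast of the choice. The remaining 6 lay between -0.22 ± 0.18 for BCKDHA and 0.20 ± 0.28 for BCKDHB. Estrogen against placebo left none of the 8 without overlap, beside 6.09% of all tested probe sets, and gave 3 higher and 5 lower. Between estrogen and progesterone 7 of the 8 were lower with estrogen, with BCKDHB the exception, and the median was -0.23, beside -0.0016 over all. Several of those 7 were small, BCAT1 at -0.0015 and PCCB at -0.095, and none passed the threshold. ALDH6A1, also among them, was in the tested set only through its combined arrays. Without both arrays of high ribosomal signal ALDH6A1 and BCAT2 turned, which left 5 of the 8 lower.

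**Figure D4:**
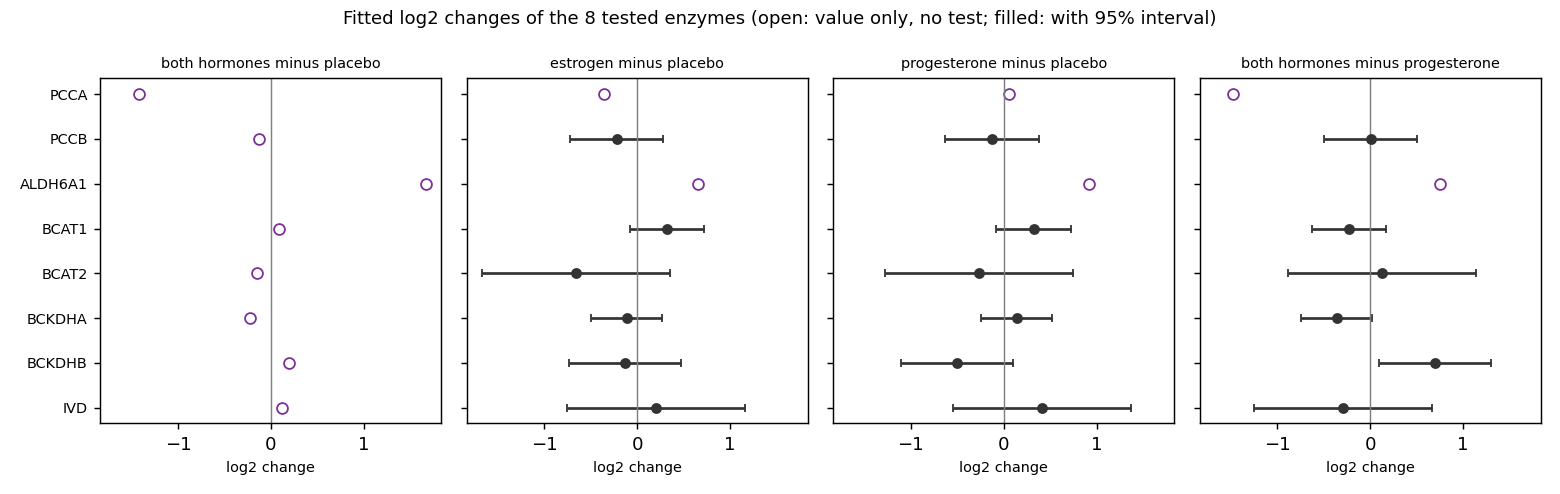
Fitted log2 changes of the 8 tested enzymes in 4 comparisons, with filled points and 95% intervals where a test is given and open points where the value is only described. PCCA at -1.42 and ALDH6A1 at 1.67 lie far from 0 for both hormones minus placebo, and the only filled interval that leaves 0 out is that of BCKDHB for both hormones minus progesterone, which did not pass after adjustment.

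**Figure D5:**
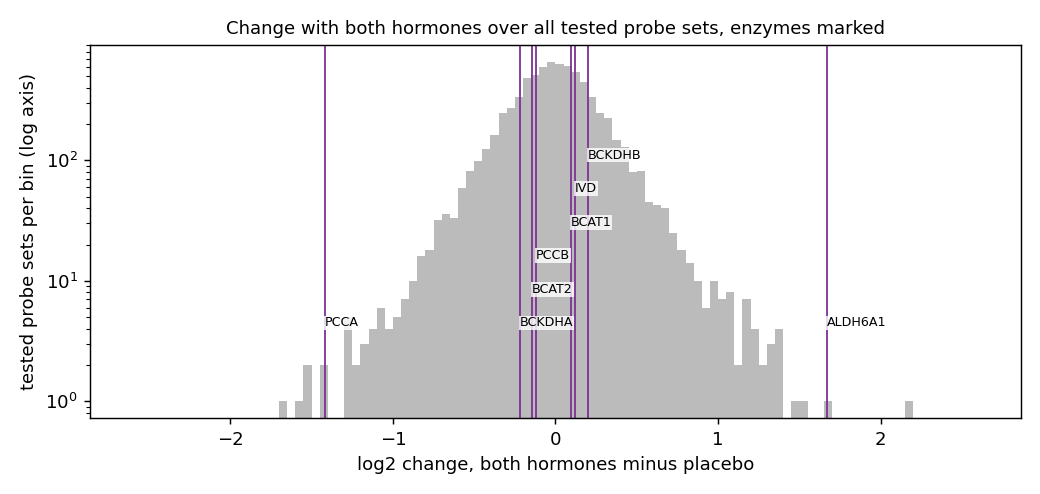
Histogram of the log2 changes of all 7535 tested probe sets between both hormones and placebo, with the 8 enzymes marked by vertical lines. ALDH6A1 at 1.67 and PCCA at -1.42 lie in the tails from which they were chosen, and the other 6 lie between -0.22 and 0.20.

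Precision differed between the enzymes. The 95% interval of a difference reached 1.30-fold either way for BCKDHA, 1.32-fold for BCAT1, 1.42-fold for PCCB and 1.52-fold for BCKDHB, with PCCA between the last 2. It reached 1.85-fold for ALDH6A1, 1.94-fold for IVD and 2.02-fold for BCAT2, and smaller changes of those 3 could not be told from 0. These intervals are not adjusted for the number of probe sets tested, so a larger change need not pass the adjusted threshold with 3 monkeys a group. For BCKDHB, the interval reached 0.60 on the log2 scale. Its difference of 0.70 between the combined group and progesterone was larger, but the adjusted p was 0.548 in limma.

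The probe sets whose values ran most like those of PCCA over the 12 arrays were BTRC, a substrate receptor of a ubiquitin ligase, with a Pearson r of 0.89, the zinc finger factor ZFX with 0.89 and the kinesin-binding protein KIFBP with 0.86. BTRC averaged 59.1 with both hormones, 114 with estrogen, 161 with progesterone and 134 with placebo. For ALDH6A1 they were the centrosomal gene ALMS1 with 0.88, the topoisomerase TOP3B with 0.88 and TUB with 0.84. These are the highest of 6679 probe sets compared, over arrays that share their groups, and are a description only. With the group means taken out, r fell to 0.435 for BTRC, 0.51 for ZFX and 0.67 for KIFBP. It was then 0.95 for ALMS1, 0.80 for TOP3B and 0.66 for TUB. Other probe sets of the same genes mostly did not follow. They gave -0.35 and 0.21 for BTRC, -0.035 for ALMS1 and -0.29 for TUB. Of the 3 others of TOP3B, 1 ran like ALDH6A1 with 0.70, and the rest gave 0.23 and -0.45.

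Beyond the 9 genes, lists of the surrounding pathway held 69 genes, of which 54 were named on the array and 47 were bright enough to test. They cover the rest of the propionate, valine, isoleucine and leucine routes, control of the dehydrogenase, biotin handling, amino acid transport, flavin electron transfer, other mitochondrial dehydrogenases and aminotransferases. None of the 47 passed the adjusted threshold in limma in any of the 6 tested comparisons. At an unadjusted p under 0.05 there were 0 for estrogen against placebo, 4 for progesterone against placebo, 0 for the combined group against estrogen, 3 for the combined group against progesterone, 5 for estrogen against progesterone and 1 for the departure from additivity. As shares of the 47 these were 0%, 8.51%, 0%, 6.38%, 10.6% and 2.13%, beside 3.16%, 8.24%, 2.87%, 7.71%, 8.45% and 4.99% of all tested probe sets. Progesterone against placebo split into 25 higher and 22 lower with a median of 0.020, and 11 of the 47, or 23.4%, did not overlap, beside 16.8% of all tested probe sets. The combined group against progesterone also gave 23.4%, beside 16%, and estrogen against progesterone gave 10.6%, beside 13.7%. The combined group against placebo gave 19.1%, beside 8.61%. Estrogen against placebo and the combined group against estrogen each gave 2.13%, beside 6.09% and 6.37%.

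Methylmalonyl-CoA mutase, MMUT, acts after propionyl-CoA carboxylase and was highest with progesterone alone. It read 128, 164 and 170 with both hormones, 133, 176 and 172 with estrogen, 207, 226 and 222 with progesterone, and 170, 166 and 164 with placebo. All 3 progesterone arrays lay above the other 9. The combined group differed from progesterone by -0.53 ± 0.18 (limma adjusted p = 0.484), and progesterone from placebo by 0.39 ± 0.18 (adjusted p = 0.628). The next step of that route, succinyl-CoA ligase, had its SUCLG2 subunit lowest with progesterone, at 65.4, 59.7 and 60.9, against 107, 83.9 and 84.1 with placebo. That difference was -0.52 ± 0.22 (limma adjusted p = 0.568), with 1 estrogen array lower still at 45.6.

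SLC5A6 imports biotin, the cofactor of PCCA, and had the largest departure from additivity of its list, 1.70 ± 0.72 (limma adjusted p = 0.958). It read 162, 165 and 146 with both hormones, 46.2, 119 and 119 with estrogen, 144, 26.9 and 109 with progesterone, and 182, 118 and 153 with placebo. The combined and placebo values were alike in range, and 1 estrogen and 1 progesterone array were low. ACADM, the medium-chain acyl-CoA dehydrogenase of fatty acid oxidation, read 567, 431 and 491 with estrogen, against 740, 981 and 901 with placebo, a log2 difference of -0.80 ± 0.44 (limma adjusted p = 0.9999). Glutamine synthetase, GLUL, which turns glutamate into glutamine in astrocytes, differed by 0.54 ± 0.20 between estrogen and progesterone (limma adjusted p = 0.509). BCKDK, the kinase that switches the dehydrogenase complex off, was measured as well and passed the threshold in none of these comparisons. Its standard error between 2 groups was 0.52. The BCKDK arrays ran from 71 to 261 with progesterone and from 78.7 to 266 with placebo, so BCKDK is not shown to be unchanged.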

How the data were processed

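RNA from the dorsal raphe nucleus was read on 12 arrays. Each deposited value is the linear intensity of a probe set, and the values show that the authors had scaled each array to a common trimmed mean with 2% trimmed from each end. How probes were summarised is not given in the sources used here. Of the probe sets beside 67 controls, 10943 had 1 symbol in the platform annotation, 545 several and 1070 none. Symbols were updated through RefSeq synonyms.

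Intensities were converted to log2(intensity + 8.26), the offset being the pooled 10th percentile, and quantile normalized. The lowest 40% by mean were left out (5023), and group means over all 12 arrays were fitted to 7535 probe sets with limma (version 3.58.1, R 4.3.3), 2-sided with Benjamini-Hochberg adjustment at 0.05. Arrays overlap or not by their deposited intensities. The members and lists were chosen with earlier results of these data known. Pathway genes are named for the highest or lowest change of their list in a comparison, and 3 neighbours each by Pearson r. The fit was tested on simulated data. Replicates are separate monkeys.

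Same-numbered arrays were checked for pairing by the correlation of their deviations from the group means. The combined and estrogen groups gave 0.41, 0.30 and 0.13, all over 0.1, and the other pairs of groups did not all pass it, from -0.22 to 0.11. A fit with the replicate number as a block was an alternative. Scaling, offset, filter, weights, trend, the arrays fitted and each array left out were the others.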

Additional observations from a re-analysis of the deposited data

How the results depend on the processing

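No enzyme passed the adjusted threshold in a tested comparison under any of 22 alternatives. The difference between the combined group and placebo kept its sign in each alternative that held the gene, 1.17 to 1.94 for ALDH6A1 and -1.73 to -0.95 for PCCA, with the end nearest 0 at 4 times the offset. That contrast chose both genes on these same arrays, so nothing is read from the kept sign. Neither passed the filter with the lowest 60% left out, and ALDH6A1 also did not without combined array 1. Counts of calls over all probe sets are few and shift with most choices, and what sets them was not tested.

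Progesterone against placebo, with 3 calls, gave 1 with values as deposited, 5 without a filter, 1 with the lowest 60% left out, 6 with array weights and 11 when both arrays with high ribosomal signal were left out. The combined group against progesterone, with 1, gave 3 at 4 times the offset, 6 without a filter, 0 with 60% left out, 2 with a trended prior, 12 with array weights and 3 when fitted to the compared groups alone. Estrogen against progesterone, with 2, gave 1 as deposited, 0 with a common median, 5 at 4 times the offset, 1 with 60% left out and 13 with array weights. Additivity, with 0, gave 1 without a filter and 2 with array weights. The combined group against placebo, with 1, gave 2 as deposited and with array weights, and 0 at 4 times the offset, without a filter, with 60% left out, in the compared groups alone and without both ribosomal arrays. With the replicate block, progesterone against placebo, the combined group against progesterone and estrogen against progesterone gave 0 calls, the combined group against placebo gave 1, and no other call changed. Leaving out 1 array gave 0 to 0 calls for estrogen against placebo, 0 to 6 for progesterone against placebo, 0 to 2 for the combined group against estrogen, 0 to 3 against progesterone and 0 to 2 against placebo, 0 to 3 for estrogen against progesterone and 0 to 1 for additivity.

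The enzyme differences that turned sign were not only small ones. In the main fit BCAT2 differed by 0.51 ± 0.46 between the combined group and estrogen, and by -0.38 ± 0.46 between estrogen and progesterone. For estrogen against placebo, BCKDHB gave 0.061 with array weights and 0.034 without both ribosomal arrays, and IVD -0.32 and -0.35. For the combined group against estrogen, IVD gave 0.17 and 0.14 in the same settings, and BCAT2 -0.023 without both arrays. For the combined group against progesterone, PCCB gave -0.028 with a common median and -0.073 with array weights. For estrogen against progesterone, BCAT1 gave 0.0010 as deposited, and without both arrays ALDH6A1 gave 0.071 and BCAT2 0.22. Leaving out single arrays, the ranges that crossed 0 were, for estrogen against placebo, -0.27 to 0.0368 (BCKDHA), -0.45 to 0.0425 (BCKDHB) and -0.35 to 0.50 (IVD). For progesterone against placebo they were -0.15 to 0.20 (PCCA), -0.35 to 0.0742 (PCCB), -0.59 to 0.0064 (BCAT2) and -0.0111 to 0.29 (BCKDHA). For the combined group against estrogen they were -0.0354 to 0.22 (PCCB), -0.0889 to 0.91 (BCAT2) and -0.41 to 0.47 (IVD). Against progesterone they were -0.13 to 0.12 (PCCB), -0.11 to 0.34 (BCAT2) and -0.63 to 0.0052 (IVD). For estrogen against progesterone they were -0.66 to 0.0715 (ALDH6A1), -0.0518 to 0.0753 (BCAT1), -0.78 to 0.21 (BCAT2) and -0.76 to 0.0867 (IVD), and for additivity -0.24 to 0.49 (ALDH6A1) and -0.83 to 0.0518 (IVD). For the combined group against placebo they were -0.34 to 0.0799 (PCCB), -0.0557 to 0.22 (BCAT1), -0.46 to 0.13 (BCAT2), -0.12 to 0.37 (BCKDHB) and -0.21 to 0.42 (IVD).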
